A study of Drosophila melanogaster with 7 samples.

Results

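The genes described here encode the proteins of the mitochondrial ribosome, chosen by name: every gene whose symbol in the deposited table began with mRpL (large subunit) or mRpS (small subunit). There were 73 of them among 17481 genes, 47 for the large and 26 for the small subunit. FPKM is by definition the number of fragments of a gene scaled by transcript length and by the mapped total of the library. Whether the deposited values were also scaled between libraries is not given in the sources used here. The test took genes at 1 FPKM or more in 3 or more of the 7 libraries, and all 73 met that minimum.

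The mitochondrial ribosome translates the few messages that the mitochondrial genome still encodes, which are core subunits of the respiratory chain and the ATP synthase. Its RNAs come from the mitochondrial genome, but its proteins are made in the cytosol from nuclear genes and imported. The large subunit holds the catalytic centre that joins amino acids and the tunnel through which the new chain leaves, and the small subunit binds the message and decodes it. In the fly gut, mitochondrial activity is known to bear on how intestinal stem cells divide and differentiate.

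RNA was sequenced from GFP-labelled intestinal stem cells, sorted from elastase-digested midguts of adult Drosophila melanogaster at day 2, about 10000 cells per sample. The Ctrl group held 3 libraries with the genotype label wild type, and the ScOE group held 4 libraries with the label Sc overexpression. Sc, the product of scute, is a proneural transcription factor known to direct progenitors towards the enteroendocrine, hormone-secreting fate. The RNA was amplified before library preparation in both groups. The labels used here give neither the driver of the overexpression nor the transgene. They do not say that the libraries came from separate flies or cultures, so a p-value here reflects how these particular libraries scatter, and some of that scatter may be technical.

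Summed FPKM was 1924960 to 2614340 in the Ctrl libraries and 1059340 to 1382540 in the ScOE libraries. The median tested gene stood at 14.1 FPKM in every Ctrl library and at 13.7 to 14.0 FPKM in the ScOE libraries. Absolute depth cannot be had from FPKM, so relative depth was estimated from the size of 1 fragment among low values. The estimate was 0.451 to 0.603 of ScOE 3 for the Ctrl libraries and 0.853 to 1.04 for the other ScOE libraries. These are ratios of depth only if the values were not scaled between libraries, which is not known. Of the 37 mitochondrially encoded entries, 37 were listed at 0 in every library, so the ribosome's own RNAs and its messages could not be read.

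On the deposited FPKM scale the mitochondrial ribosomal protein genes were lower in the Sc-overexpressing cells. The test was limma on log2(FPKM + 1), fitted over 8421 genes, with a Benjamini-Hochberg adjusted p under 0.05 as the threshold. It called 38 of the 73 genes lower (52.1%) and 0 higher, against 21.3% of all tested genes called lower and 17.6% called higher, 39% together. Before adjustment, 47 of the 73 genes were lower at p under 0.05 (64.4%) and 0 were higher, against 26.8% and 21.5% of all tested genes. The values of ScOE and Ctrl did not overlap, with ScOE the lower, for 46 of the 73 genes (25.9% of all tested genes), and no member stood apart in the other direction (20.3% of all tested genes). The median log2 fold change of the 73 genes was -0.54, with quartiles of -0.73 and -0.34, beside -0.08 over all tested genes. These are sums over the sorted cells of a library, so fewer cells of a type and less RNA per cell cannot be told apart.

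The shift was broad and moderate. Log2 fold changes ran from -1.28 for mRpS28 to 0.32 for mRpL28, 69 of the 73 were below 0, and 3 reached -1 or lower. At an adjusted p under 0.01, 12 genes were lower (16.4%), beside 11.4% of all tested genes, so the members stood nearer to the background at this threshold. The 2 subunits gave similar shares: 25 of 47 mRpL genes fell (53.2%) with a median of -0.55, and 13 of 26 mRpS genes fell (50.0%) with a median of -0.53. Without ScOE 2, ScOE 3 or Ctrl 1 the mRpL count was 12, 15 and 16 (25.5%, 31.9% and 34.0%) and the mRpS count 9, 9 and 10 (34.6%, 34.6% and 38.5%), so the order of the shares depended on single libraries. The genes that stood apart with ScOE lower numbered 31 in the large and 15 in the small subunit.

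**Figure D1:**
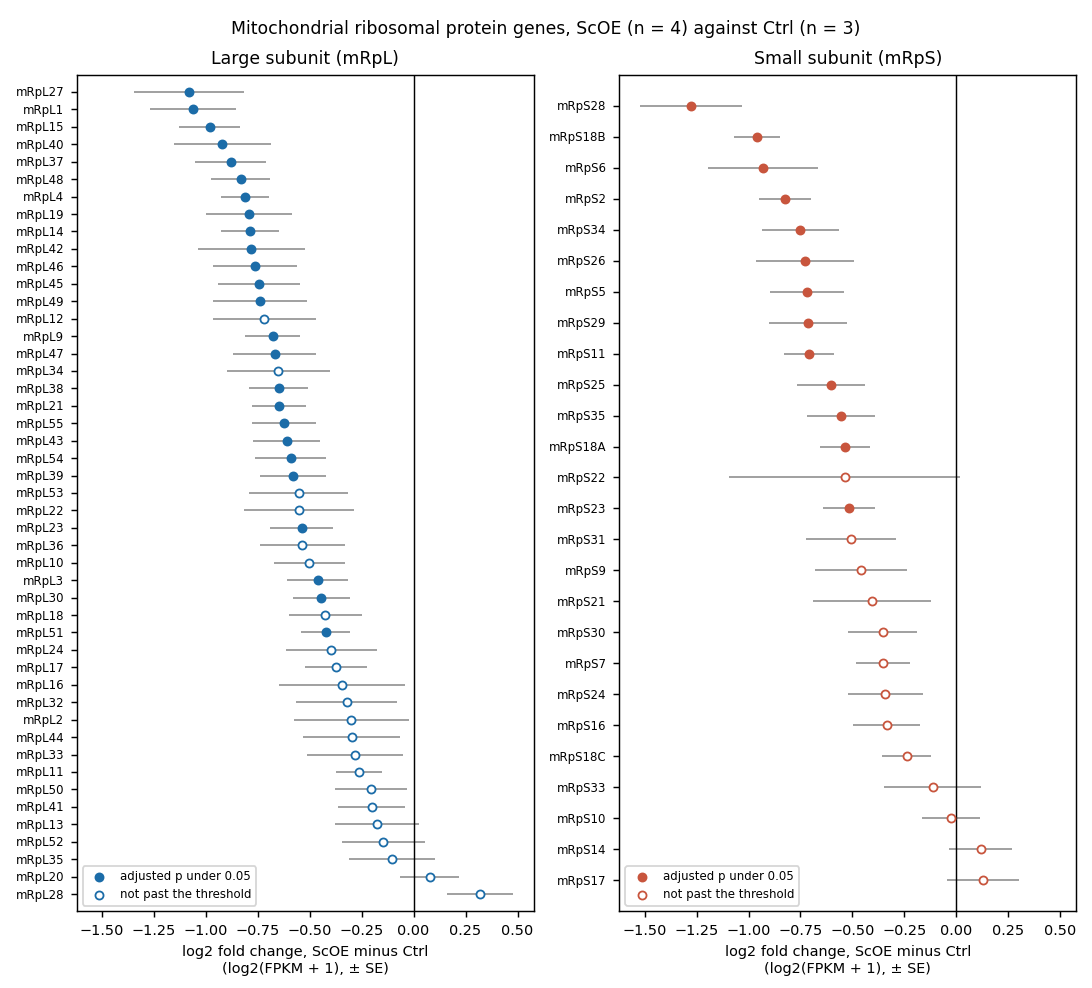
Log2 fold change of each mitochondrial ribosomal protein gene, ScOE minus Ctrl on log2(FPKM + 1) as deposited, with its SE, for the large subunit (left, 47 genes) and the small subunit (right, 26 genes); filled points passed the adjusted p threshold of 0.05. The points run from -1.28 (mRpS28) to 0.32 (mRpL28), with every filled point below 0; with library totals set equal no member was called lower.

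The direction depended on how the libraries were put on a common scale. With values as deposited, and with upper quartile, trimmed-mean or quantile scaling, the median of the 73 genes was -0.54, -0.37, -0.47 and -0.38. Upper quartile scaling called 19 members lower and 1 higher, beside 14.9% and 22.8% of all tested genes, trimmed-mean scaling 36 and 0, beside 19.2% and 19.7%, and quantile scaling 19 and 1, beside 17.3% and 17.6%. When every library was scaled to the same FPKM total, it was 0.29, with 0 genes called lower and 16 higher, beside 3.33% and 52.9% of all tested genes. That scaling raised the median of all tested genes to 0.68. The members lay below that median under all 5 scalings, by 0.46, 0.45, 0.45, 0.33 and 0.39 in the same order, and 62 to 68 of the 73 genes did so singly. Genes of the cytosolic ribosome alone summed to 741000 to 922000 FPKM in Ctrl and 368000 to 501000 FPKM in ScOE libraries; the part of these sums in the result was not tested. Falls given below are on the deposited scale, and none of the members' falls passed the threshold under equal totals.

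**Figure D2:**
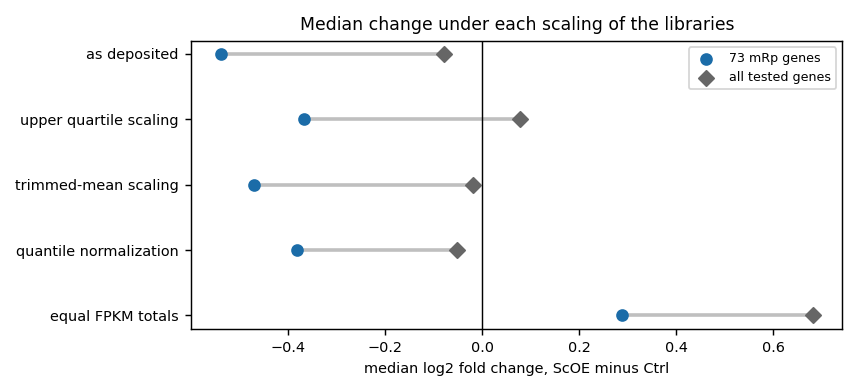
Median log2 fold change, ScOE minus Ctrl, of the 73 mitochondrial ribosomal protein genes (circles) and of all 8421 tested genes (diamonds) under 5 ways of scaling the libraries. The circles lie left of the diamonds in each row, and with equal FPKM totals both lie above 0, at 0.29 and 0.68.

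The same difference was visible in ranks within a library, which no scaling factor changes. The median mitochondrial ribosomal protein gene stood at percentile 78.1, 74.9 and 75 of the tested genes in Ctrl 1, 2 and 3, and at 74.6, 70.1, 71.9 and 68.7 in ScOE 1 to 4. The groups did not overlap, but Ctrl 2 and ScOE 1 were close. For the mRpL genes alone the groups were apart, at 74.8 to 77.9 in Ctrl and 68.2 to 73.2 in ScOE, but for the mRpS genes they overlapped, at 74.7 to 78.3 in Ctrl and 71.7 to 75.9 in ScOE. The median level was 52.1, 41.8 and 44.2 FPKM in Ctrl and 38.0, 30.5, 33.4 and 28.4 FPKM in ScOE.

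Libraries within a group also differed as a block. Ctrl 1 held the highest Ctrl value for 59 of the 73 genes and ScOE 1 the highest ScOE value for 50, while ScOE 4 held the lowest for 48. The median deviation from the group mean was 0.25, -0.14 and -0.09 on the log2 scale in Ctrl 1 to 3, and 0.16, -0.05, 0.04 and -0.18 in ScOE 1 to 4. Without Ctrl 1 and ScOE 1, a choice made after the data were seen, 28 of the 73 genes were lower and 0 higher, beside 18.3% and 15.4% of all tested genes.

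**Figure D3:**
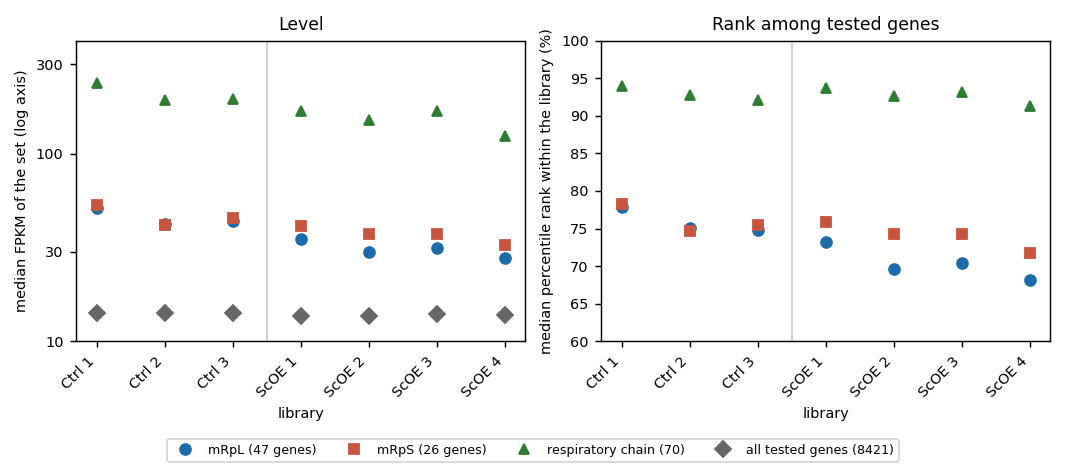
Median level in FPKM on a log axis (left) and median percentile rank among tested genes (right) in each library, for mRpL genes, mRpS genes, nuclear-encoded respiratory chain subunits and, on the left, all tested genes. The median mRpL gene was at 51.5, 42.4 and 43.9 FPKM in Ctrl and at 27.8 to 35.1 FPKM in ScOE libraries, while the median of all tested genes stayed between 13.7 and 14.1 FPKM.

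Among the large subunit genes, mRpL27 showed the largest fall; its bacterial relative reaches into the catalytic centre. mRpL27 (FBgn0053002; BDGP6 2L:4458595-4459638, minus strand) was at 97.7, 60.7 and 75.6 FPKM in Ctrl and at 54.8, 33.4, 31.8 and 27.6 FPKM in ScOE. Each ScOE library was below each Ctrl library, with ScOE 1 the nearest. The mean went from 78.0 ± 18.6 (SD, n = 3) to 36.9 ± 12.2 FPKM (SD, n = 4), a log2 fold change of -1.08 ± 0.26 (SE; limma adjusted p = 0.0158).

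mRpL1 belongs to the L1 stalk, the arm beside the exit site of spent tRNAs. mRpL1 (FBgn0037566; BDGP6 3R:8301440-8302770, plus strand) was at 66.1, 43.6 and 39.5 FPKM in Ctrl and at 25, 22.5, 25.6 and 18.3 FPKM in ScOE. The groups were apart, with Ctrl 1 well above the other Ctrl libraries. The log2 fold change was -1.06 ± 0.21 (adjusted p = 0.00649), 2.17-fold between the means.

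mRpL15, a ribosomal RNA-binding protein of the large subunit core, was tighter within groups. mRpL15 (FBgn0036990; BDGP6 3L:20435110-20436209, minus strand) was at 71.2, 74.4 and 62.7 FPKM in Ctrl and at 41.7, 29.8, 31.2 and 36.9 FPKM in ScOE, with no overlap. Its log2 fold change was -0.98 ± 0.15 (adjusted p = 0.0022).

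mRpL40 and mRpL37 are proteins of the mitochondrial large subunit without a bacterial counterpart of the same number. mRpL40 was at 45.4, 29.4 and 28.5 FPKM in Ctrl and at 23.8, 14.6, 18.1 and 14.3 FPKM in ScOE, a log2 fold change of -0.92 ± 0.24 (adjusted p = 0.0192). mRpL37 was at 20.4, 18.5 and 14.2 FPKM in Ctrl and at 11.3, 8.98, 8.43 and 7.85 FPKM in ScOE, a log2 fold change of -0.88 ± 0.17 (adjusted p = 0.00647). Both pairs of groups were apart. The call of mRpL40 did not pass without ScOE 2 (adjusted p = 0.0539).

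The other mRpL genes that fell were mRpL3, mRpL4, mRpL9, mRpL14, mRpL19, mRpL21, mRpL23, mRpL30, mRpL38, mRpL39, mRpL42, mRpL43, mRpL45, mRpL46, mRpL47, mRpL48, mRpL49, mRpL51, mRpL54 and mRpL55. Of the 38 genes that fell, mRpL42 alone had overlapping groups, by ScOE 3 at 48.0 FPKM and Ctrl 2 at 47 FPKM.

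In the small subunit, mRpS28 had the largest fall of any member and the highest Ctrl mean of the subunit. mRpS28 (FBgn0034361; BDGP6 2R:18614210-18615018, minus strand) was at 287, 198 and 217 FPKM in Ctrl and at 131, 81.3, 109 and 69.7 FPKM in ScOE. Every ScOE library was below every Ctrl library. The mean went from 234 ± 46.6 (SD, n = 3) to 97.7 ± 27.6 FPKM (SD, n = 4), 2.40-fold lower, with a log2 fold change of -1.28 ± 0.24 (adjusted p = 0.00613).

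mRpS6, whose bacterial relative pairs with S18 on the platform of the small subunit, was at 91.8, 54.7 and 46.4 FPKM in Ctrl and at 38.0, 28.9, 37.5 and 24.8 FPKM in ScOE. Its log2 fold change was -0.93 ± 0.26 (adjusted p = 0.0284). The groups were apart but spread widely, and the call did not pass without Ctrl 2, ScOE 2 or ScOE 4 (adjusted p = 0.0544, 0.0723 and 0.0626).

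mRpS2, on the solvent side of the subunit, was at 42.7, 36 and 41.0 FPKM in Ctrl and at 20.9, 23.5, 24.6 and 19.5 FPKM in ScOE, a log2 fold change of -0.82 ± 0.13 (adjusted p = 0.00237). mRpS34, a mitochondria-specific protein, was at 55.7, 41.3 and 44.2 FPKM in Ctrl and at 35.2, 28.8, 25.3 and 21.8 FPKM in ScOE, a log2 fold change of -0.75 ± 0.19 (adjusted p = 0.0174). Neither pair of groups overlapped. The other mRpS genes that fell were mRpS5, mRpS11, mRpS18A, mRpS18B, mRpS23, mRpS25, mRpS26, mRpS29 and mRpS35; mRpS29 is the fly form of the GTP-binding protein known in humans as DAP3.

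The mitochondrial ribosome of animals carries 3 proteins related to bacterial S18, and in the human ribosome the A form sits in the large subunit. They differed in the size of the change. mRpS18B (FBgn0032849; BDGP6 2L:20096329-20097253, minus strand) was at 85.0, 84.5 and 74.0 FPKM in Ctrl and at 45.5, 39.9, 40.7 and 39.1 FPKM in ScOE. The log2 fold change, -0.96 ± 0.11, had the smallest adjusted p of the members (0.000693).

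mRpS18A (FBgn0051450; BDGP6 3R:8561917-8562593, minus strand) was at 81.4, 68.1 and 69.2 FPKM in Ctrl and at 55.2, 44.9, 49.5 and 50.2 FPKM in ScOE, a log2 fold change of -0.54 ± 0.12 (adjusted p = 0.0117). mRpS18C (FBgn0039765; BDGP6 3R:30423974-30424556, plus strand) was at 27.1, 27.3 and 27.6 FPKM in Ctrl and at 25.2, 19.6, 24.5 and 23.1 FPKM in ScOE, a log2 fold change of -0.24 ± 0.12 that did not pass (adjusted p = 0.15). All 3 stood apart with ScOE lower, and the differences between their fold changes were not tested. mRpS30, also placed in the large subunit of the human ribosome, was at 23.8, 21.5 and 15.7 FPKM in Ctrl and at 17.9, 15.4, 14.8 and 14.0 FPKM in ScOE, with overlap (log2 fold change -0.35 ± 0.17, adjusted p = 0.131). Without Ctrl 3 it passed (adjusted p = 0.0334).

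**Figure D4:**
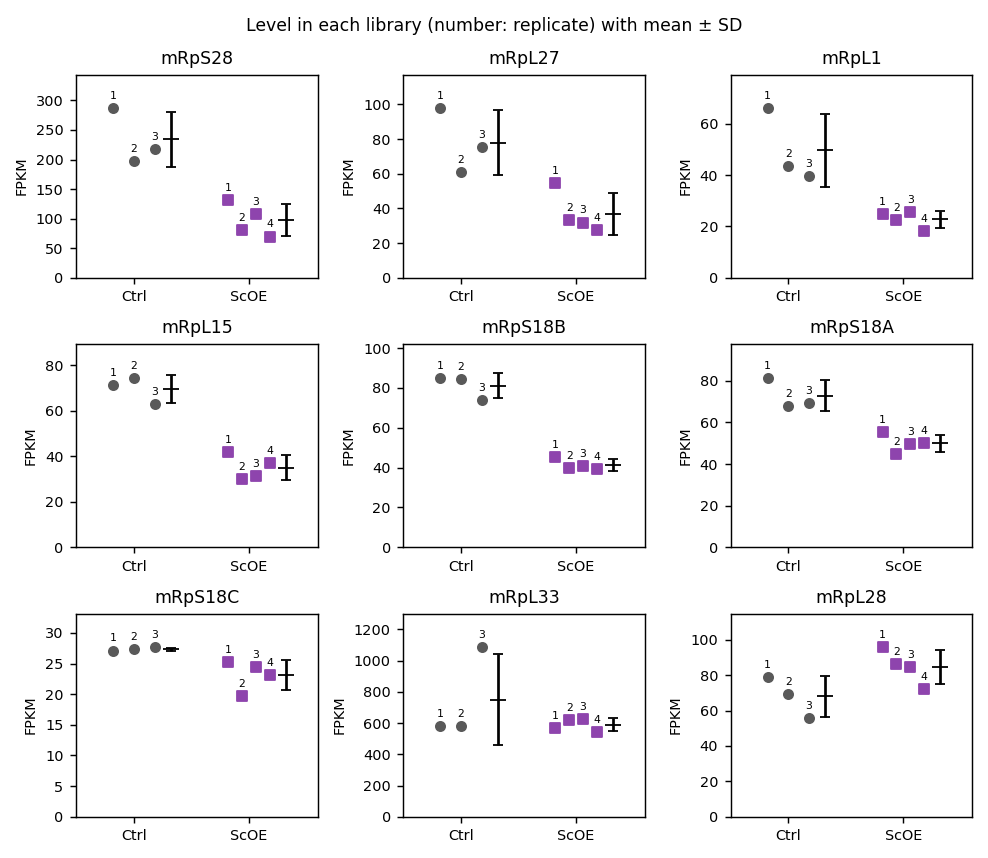
FPKM of 9 mitochondrial ribosomal protein genes in each library (numbers are replicates), with the group mean and SD beside the points. The ScOE points of mRpS28, mRpL27, mRpL1, mRpL15 and mRpS18B lie below all Ctrl points on this deposited scale, mRpL33 is set apart by Ctrl 3 alone at 1084 FPKM, and the mRpL28 groups overlap.

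The genes of the stalk that recruits elongation factors did not pass the threshold. 0 of mRpL10, mRpL11, mRpL12 and mRpL53 were called by limma, and 3 of the 4 were lower at an unadjusted p under 0.05, with a median log2 fold change of -0.53. mRpL12, the stalk protein itself, was at 116, 75.1 and 66.1 FPKM in Ctrl and at 57.5, 55.0, 56.1 and 35.8 FPKM in ScOE. The groups were apart, but Ctrl 1 and ScOE 4 stretched both of them (log2 fold change -0.72 ± 0.25, adjusted p = 0.0549), and the gene passed without Ctrl 3 (adjusted p = 0.0438).

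mRpL10, which anchors the stalk, was at 35.9, 28.2 and 24.6 FPKM in Ctrl and at 21.1, 20.6, 16.6 and 23.5 FPKM in ScOE. It too was apart and just above the threshold (log2 fold change -0.50 ± 0.17, adjusted p = 0.0526), and passed without Ctrl 3 (adjusted p = 0.0397). mRpL11, at the base of the stalk, was at 40.9, 43.4 and 47.9 FPKM in Ctrl and at 39.8, 35.3, 36.7 and 34.4 FPKM in ScOE, apart by a small margin (log2 fold change -0.26 ± 0.11, adjusted p = 0.0972). mRpL53, which adjoins the stalk in the human ribosome, overlapped between groups (-0.55 ± 0.24, adjusted p = 0.109). All 829 of its exonic bases are shared with CG33155 on the same strand, so its level may include reads of that gene.

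Around the polypeptide exit 3 of 6 genes fell, a share of 50.0% close to the 52.1% of all members (21.3% of all tested genes). They were mRpL23, mRpL45 and mRpL47, at log2 fold changes of -0.54, -0.75 and -0.67 (adjusted p = 0.0274, 0.0221 and 0.0338). mRpL45 is known to bind the tunnel exit beside the inner membrane. These calls were not robust to single libraries. mRpL23 missed the threshold without Ctrl 1, Ctrl 2, Ctrl 3 or ScOE 2 (adjusted p = 0.0646, 0.0584, 0.0629 and 0.0622). mRpL45 missed it without Ctrl 1 or Ctrl 2 (adjusted p = 0.0579 and 0.0643), and mRpL47 without ScOE 2, ScOE 3 or ScOE 4 (adjusted p = 0.0841, 0.0811 and 0.0674). mRpL17, mRpL22 and mRpL24 did not pass.

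Of the 5 genes whose relatives line the catalytic core, mRpL3, mRpL4 and mRpL27 fell, and mRpL2 and mRpL16 did not pass. The share that fell was 52.1% over all members and 21.3% over all tested genes. Whether the core genes differed from the other members was not tested. The call of mRpL3 was kept in 1 of the 7 fits that left out a library and under 0 of the 3 scalings upper quartile, trimmed-mean and quantile. mRpL4 was at 98.2, 120 and 118 FPKM in Ctrl and at 68.5, 59.8, 62.3 and 62.3 FPKM in ScOE, clearly apart (log2 fold change -0.81 ± 0.12, adjusted p = 0.0018). mRpL2 was among the lowest members, at 16.9, 12.3 and 12.0 FPKM in Ctrl and at 15.8, 9.84, 13.0 and 6.74 FPKM in ScOE, with overlap (log2 fold change -0.30 ± 0.28, adjusted p = 0.432).

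Members numbered like bacterial ribosomal proteins, up to L36 and S21, and members with higher numbers, most of which bacteria lack, were compared after their values had been seen. Of the 42 with bacterial-type numbers 17 fell (40.5%, median log2 fold change -0.46), and of the 31 with higher numbers 21 fell (67.7%, median -0.60). The share of all tested genes was 21.3%. By the other measure the classes were close: 26 of the 42 (61.9%) and 20 of the 31 (64.5%) stood apart with ScOE lower. Over all tested genes that share was 25.9%. At an unadjusted p under 0.05 by limma, 25 of the 42 and 22 of the 31 were lower, beside 26.8% of all tested genes. In the large subunit 11 of 28 (39.3%) fell at the adjusted threshold against 14 of 19 (73.7%). In the small subunit it was 6 of 14 (42.9%) against 7 of 12 (58.3%). The classes are not exact, since mRpL47, for one, is related to a bacterial protein of another number, and the difference between them was not tested.

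The 35 members that did not pass included the 4 with log2 fold changes above 0. mRpL28 (FBgn0031660; BDGP6 2L:4973976-4975316, plus strand) was at 79.1, 69.2 and 55.6 FPKM in Ctrl and at 95.7, 86.4, 84.4 and 72.0 FPKM in ScOE. ScOE 4 lay inside the Ctrl range (log2 fold change 0.32 ± 0.16, adjusted p = 0.152), and the gene passed as higher with upper quartile scaling (adjusted p = 0.0424), quantile scaling (adjusted p = 0.0383) and with equal totals (adjusted p = 0.00323). mRpL20, mRpS14 and mRpS17 were at 0.08 ± 0.14, 0.12 ± 0.15 and 0.13 ± 0.17 (adjusted p = 0.703, 0.584 and 0.603), each with overlapping groups.

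There were 9 members that missed the threshold although their groups were apart: mRpL10, mRpL11, mRpL12, mRpL17, mRpL18, mRpL34, mRpL36, mRpS7 and mRpS18C. mRpS7, which binds the head of the small subunit RNA, was at 164, 141 and 126 FPKM in Ctrl and at 123, 114, 111 and 100.4 FPKM in ScOE (log2 fold change -0.35 ± 0.13, adjusted p = 0.0683). mRpS22 was the most variable, at 39.9, 22.3 and 11.3 FPKM in Ctrl and at 28.3, 12.7, 19.6 and 6.28 FPKM in ScOE. Its coefficient of variation was 58.9% in Ctrl and 56.3% in ScOE, beside medians over the members of 19.7% and 14.4%, so its log2 fold change of -0.54 had an SE of 0.56 (adjusted p = 0.489).

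Levels differed far more between members than between groups. Single values ran from 5.71 to 1080 FPKM, and 67 of the 73 means lay between 10 and 120 FPKM. mRpL33, a small RNA-binding protein of the large subunit, had the highest mean. mRpL33 (FBgn0040907; BDGP6 X:4321764-4322231, minus strand; longest transcript 349 bases) was at 581, 581 and 1084 FPKM in Ctrl and at 570, 620, 627 and 541 FPKM in ScOE. Ctrl 3 alone was high. The log2 fold change was -0.28 ± 0.23 (adjusted p = 0.38), and without Ctrl 3 it was 0.02.

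mRpS28 and mRpL34 followed, with means over the 7 libraries of 156 and 146 FPKM. mRpL34 has the shortest transcript of the members, 327 bases, and was at 147, 150 and 260 FPKM in Ctrl and at 138, 87.9, 109 and 127 FPKM in ScOE (log2 fold change -0.65 ± 0.25, adjusted p = 0.0757). Here too Ctrl 3 was the high library. The lowest mean was that of mRpL38, at 11.8, 11 and 8.50 FPKM in Ctrl and at 6.33, 5.86, 5.71 and 7.08 FPKM in ScOE, which fell with groups apart (log2 fold change -0.65 ± 0.14, adjusted p = 0.011). Across the 73 genes, which are not independent replicates, Spearman's rho was -0.31 between mean level and transcript length and -0.05 between log2 fold change and mean level.

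Whether the subunits moved apart depended on the summary. The median mRpL minus the median mRpS gene, on the log2(FPKM + 1) scale, was -0.04, 0.03 and -0.05 in Ctrl 1 to 3 and -0.21, -0.31, -0.26 and -0.22 in ScOE 1 to 4, with no overlap. The ratio of mean FPKM per gene, large over small and without mRpL33, was 0.83, 0.834 and 0.797 in Ctrl and 0.843, 0.835, 0.849 and 0.822 in ScOE, with overlap. The median log2 fold change differed between the subunits by -0.03. A spread of 0.044 (SD) between libraries within groups belongs to the first of these measures, the difference of library medians, and not to this one.

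Genes of the mitochondrial ribosome often lie head to head with another gene. A protein-coding neighbour on the opposite strand started within 500 bases for 51 of the 73 members (69.9%), against 2864 of 7732 tested protein-coding genes (37%). Of these neighbours 45 were tested, of which 12 were lower (26.7%, beside 21.3% of all tested genes) and 10 higher (22.2%, beside 17.6%), with a median log2 fold change of -0.16. Among the 21 members that fell and had a tested neighbour, the neighbour was lower in 7 pairs, higher in 2 and not called in 12. Among the 24 members that did not pass and had a tested neighbour, it was lower in 5 pairs and higher in 8.

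Single pairs went either way. mRpL48 and CG17660 start 41 bases apart, and both fell: mRpL48 was at 40.3, 30.2 and 33.9 FPKM in Ctrl, and at 20.8, 18.5, 20.5 and 16.4 FPKM in ScOE (log2 fold change -0.83 ± 0.14, adjusted p = 0.00382), and CG17660 fell by 1.06 on the log2 scale (adjusted p = 0.000938). mRpS11 and Ns1, which encodes a nucleolar GTPase, start 57 bases apart and fell by 0.71 and 0.97 (adjusted p = 0.00384 and 0.0111). mRpS28 and CG5323 start 42 bases apart, and CG5323 fell by 0.68 (adjusted p = 0.00383).

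In other pairs the neighbour rose. Among members that fell this was so in 2 pairs, against 7 with a lower neighbour. The neighbour 99 bases from mRpL47, listed in the table as JHDM2, rose by 0.50 (adjusted p = 0.00911). CG30183, 281 bases from mRpL43, rose by 0.57 (adjusted p = 0.0101). The members of the next 3 pairs did not pass. Cdk1, the mitotic cyclin-dependent kinase, starts 400 bases from mRpS7 and went from 33.8 ± 1.40 to 117 ± 16.6 FPKM (log2 fold change 1.76, adjusted p = 0.000135), while mRpS7 was at -0.35. The neighbour FBgn0010607, 55 bases from mRpL28, rose by 0.76 (adjusted p = 0.00444). The neighbour 399 bases from mRpL20, listed in the table as ste14, rose by 0.98 (adjusted p = 0.00284). Pearson's r between the log2 fold changes of member and neighbour was 0.2 and Spearman's rho 0.17 over the 45 pairs, given as a description.

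Strand use in read assignment is not given in the sources used here, so reads of overlapping genes could be counted for a member; this was not tested. Of the 30 members that overlap no other gene on BDGP6, 20 fell (66.7%), and of the 43 that overlap another gene, 18 fell (41.9%). Only 3 overlap a gene on their own strand, namely mRpL13, mRpL53 and mRpS14. limma called 0 of these 3, and none was lower or higher at an unadjusted p under 0.05. Their part in the low count was not tested. mRpL53 shares all 829 of its exonic bases with CG33155 on that strand, so strand alone could not separate their reads. By chromosome arm, 7 of 12 members on 2L, 5 of 12 on 2R, 10 of 17 on 3L, 10 of 21 on 3R and 6 of 11 on X fell, or 41.7% to 58.8% per arm, beside 21.3% of all tested genes.

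Mitochondrial ribosomal proteins named otherwise gave a mixed picture. bonsai, the fly relative of bacterial S15, was at 54.1, 45 and 37.8 FPKM in Ctrl and at 32.1, 26, 33.2 and 22.4 FPKM in ScOE, with groups apart (log2 fold change -0.67 ± 0.19, adjusted p = 0.0268). Its call did not pass without Ctrl 1, Ctrl 2, ScOE 2 or ScOE 4 (adjusted p = 0.0686, 0.0722, 0.0714 and 0.0501). tko, the relative of S12 known from the technical knockout mutant, was at 63.8, 12.6 and 14.6 FPKM in Ctrl and at 51.3, 55.7, 36 and 34.2 FPKM in ScOE. Ctrl 1 lay above all ScOE libraries and the other Ctrl libraries below them, so the log2 fold change of 0.89 ± 0.54 did not pass (adjusted p = 0.23); without Ctrl 1 it was 1.6 (adjusted p = 0.00353).

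The factors that work with this ribosome fell with it on the deposited scale. Of 9 mitochondrial translation factors 8 fell (88.9%, beside 21.3% of all tested genes), and the list's median log2 fold change was -0.75. The elongation factor ico (mEFG1) went from 8.25 ± 1.21 to 4.04 ± 0.79 FPKM (-0.88 ± 0.17, adjusted p = 0.00559). EfTuM, which brings the charged tRNA, was at 112, 88.5 and 81.1 FPKM in Ctrl and at 57.6, 55.1, 54.7 and 32.8 FPKM in ScOE (-0.91 ± 0.23, adjusted p = 0.0169). The exception was CG13163 (mIF3), an initiation factor, at 13.2 ± 2.05 and 14.1 ± 1.5 FPKM (log2 fold change 0.09, adjusted p = 0.657).

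Lists of mitochondrial gene expression and upkeep are read against the 21.3% of all tested genes called lower. Of the tested genes for aminoacyl-tRNA synthetases 5 of 15 fell (33.3%, median -0.33), for transcription and RNA processing 9 of 17 (52.9%, -0.41), and for import and chaperones 9 of 17 (52.9%, -0.54), with none called higher by limma and 1, 0 and 1 higher at an unadjusted p under 0.05. Among them bsf, which stabilises mitochondrial messages, went from 9.97 ± 3.01 to 3.93 ± 0.12 FPKM (log2 fold change -1.12, adjusted p = 0.00416), and the prohibitin gene Phb2 from 217 ± 10.5 to 115 ± 4.86 FPKM (-0.92, adjusted p = 0.000501). AsnRS-m, listed as CG6796, fell by 0.87 (adjusted p = 0.00647).

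Of the nuclear-encoded genes of the respiratory chain and the ATP synthase, 16 of 70 tested were lower (22.9%), near the 21.3% of all tested genes. Only 1 was higher (1.43%, beside 17.6% of all tested genes). The median log2 fold change was -0.40, and 64 of the 70 were below 0. The groups stood apart with ScOE lower for 25 of them (35.7%, beside 25.9% of all tested genes). By complex the counts were 9 of 33 for complex I, 3 of 4 for complex II, 2 of 10 for complex III and 2 of 13 for the ATP synthase. For complex IV limma called 0 of 10 in either direction, with 0 at an unadjusted p under 0.05. ATPsyn-beta, the catalytic subunit, went from 942 ± 59.0 to 532 ± 76.6 FPKM (-0.83, adjusted p = 0.0038). The median mitochondrial ribosomal protein gene minus the median respiratory chain gene was -2.17, -2.18 and -2.11 log2 units in Ctrl and -2.13, -2.28, -2.30 and -2.08 log2 units in ScOE, so the groups overlapped in that difference.

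Cytosolic ribosomal protein genes had a lower median, -0.92 on the log2 scale. Of 82 tested, 76 fell (92.7%) and 2 rose (2.44%), beside 21.3% and 17.6% of all tested genes. The median mitochondrial member minus the median cytosolic one was -7.09, -7.29 and -7.24 log2 units in Ctrl and -6.81, -6.59, -6.84 and -6.77 log2 units in ScOE, with no overlap. Of 11 regulators of mitochondrial biogenesis, 4 fell and 4 rose (36.4% each, beside 21.3% and 17.6% of all tested genes). dm, the fly Myc gene, was at 474, 494 and 517 FPKM in Ctrl and at 138, 172, 116 and 154 FPKM in ScOE (log2 fold change -1.78, adjusted p = 0.000208). srl, the fly PGC-1 homologue, fell by 1.26 (adjusted p = 0.00514), and M1BP, a promoter-binding factor, rose by 0.91 (adjusted p = 0.0123).

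**Figure D5:**
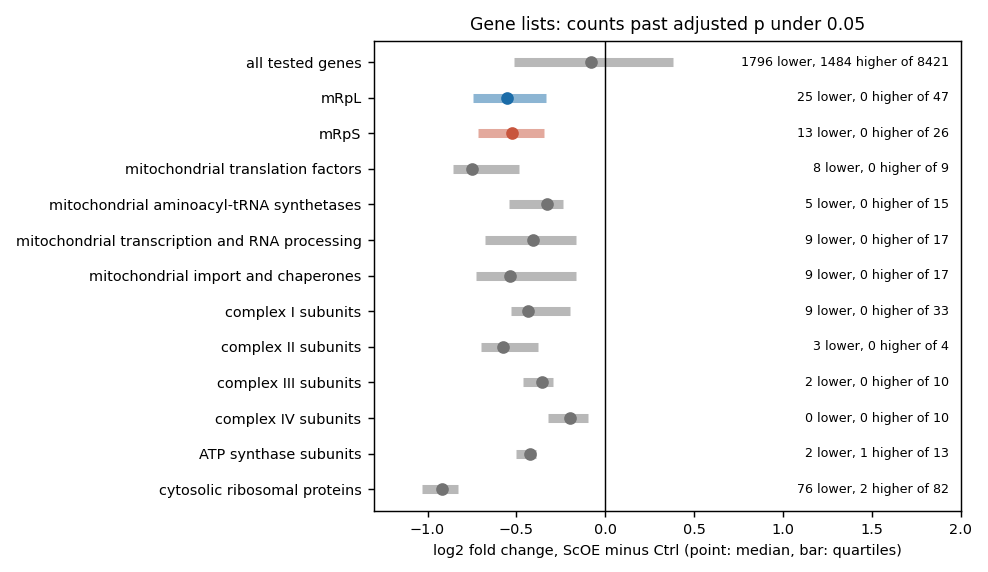
Median (point) and quartiles (bar) of the log2 fold change, ScOE minus Ctrl on the deposited scale, for each gene list, with the number of tested genes called lower and higher at an adjusted p under 0.05. The mRpL and mRpS medians (-0.55 and -0.53) lie between those of the translation factors (-0.75) and the respiratory chain complexes III and IV (-0.36 and -0.20); with equal FPKM totals the members' direction was the opposite.

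Of the cell type markers, the enteroendocrine list differed clearly between the groups, and the part of the markers in the members' levels was not tested. The 8 enteroendocrine markers summed to 85.3, 636 and 956 FPKM in Ctrl and to 2684, 5873, 8006 and 4022 FPKM in ScOE. Of these, 7 of the 8 rose (87.5%, beside 17.6% of all tested genes). The 8 stem cell and enteroblast markers summed to 620 to 905 FPKM in Ctrl and 521 to 629 FPKM in ScOE; 2 fell, Sox21a and Sox100B, and 1 rose, spdo. The 10 enterocyte markers summed to 659, 2940 and 21626 FPKM in Ctrl and to 273, 4578, 3094 and 8963 FPKM in ScOE, with wide overlap. gammaTry was at 0 throughout. Of the 9 tested, 1 fell (11.1%), Myo31DF (log2 fold change -0.85, adjusted p = 0.00334), and 0 rose, beside 21.3% and 17.6% of all tested genes. Within each group the enterocyte sum was lowest in the library numbered 1, which held the highest value for most members.

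The visceral muscle markers summed to 168 FPKM in ScOE 3 and to 0.96 to 10.7 FPKM elsewhere. Among the flight muscle markers Mf was at 62.3 FPKM in ScOE 3, while Act88F, fln and TpnC4 were at or near 0. Without ScOE 3 the members' median log2 fold change was -0.57, with 15 mRpL and 9 mRpS genes lower (32.9% of the members), beside 16.3% of all tested genes. The hemocyte markers summed to 1.79 to 5.12 FPKM and the fat body markers to under 1 FPKM in every library.

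The calls differed in how much they rested on single libraries. Leaving out each library in turn, limma called 21 to 33 of the 73 genes lower (28.8% to 45.2%) and 0 higher, while 15.6% to 20.2% of all tested genes were lower. The count was 21 without ScOE 2, beside 15.6% of all tested genes. Of the 38 genes, 17 were called in all 7 of these fits, and 16 with each of upper quartile, trimmed-mean and quantile scaling. The 14 that met both conditions were mRpL1, mRpL4, mRpL9, mRpL14, mRpL15, mRpL21, mRpL27, mRpL37, mRpL38, mRpL48, mRpS2, mRpS18B, mRpS28 and mRpS34. Equal FPKM totals were not among these conditions, and with them limma called 0 of the 14 lower. mRpL4, mRpL38, mRpL48, mRpS2 and mRpS34 were among those above 0 under equal totals.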

How the data were processed

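RNA-seq libraries of sorted cells, 3 Ctrl and 4 ScOE, were grouped by the labels. The deposited values were FPKM per gene; per the submitters' processing notes the authors used TopHat2 2.0.10, Cufflinks 2.2.1 and BDGP6. Strand use and scaling between libraries are not given in the sources used here. Depth is unknown, so no counting error is given. FPKM was used as deposited, with a pseudocount of 1, for genes at 1 FPKM or more in at least 3 libraries. ScOE was compared with Ctrl by limma 3.58.1 in R 4.3.3, with a variance trend and Benjamini-Hochberg adjustment over 8421 genes; fold changes on the log2(FPKM + 1) scale understate changes of low genes. For this comparison 10 tables of 8421 genes were simulated with independent noise, with 200 genes above a minimum level changed by 2-fold or 4-fold. Of the 2-fold changes 58.6% were recovered, of the 4-fold changes 88.6%, and 4.91% of calls were false. In the data 3280 genes were called and most members changed by less than 2-fold, so these rates do not describe the members.

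The members and lists were chosen with earlier results of these data known, and 4 list entries found to be wrong or duplicates were removed after the files had been seen. Named were up to 5 called members per subunit and direction with the largest fold change, the 3 highest and 3 lowest by level, mRpS18A, mRpS18B, mRpS18C, mRpS30, mRpL12, tko and bonsai, and up to 2 rising and 2 falling genes of each list by adjusted p; not all of the last are printed, and other genes were picked once their values had been seen. Positions count from 1 on BDGP6 (Ensembl annotation); 71 members matched by gene ID and 2 by symbol. Results were recomputed with other pseudocounts (0.1, 0.5 and 5), without the filter or with 5 FPKM, with 4 other scalings, library weights, robust moderation, a replicate block, no trend or a stricter threshold, and with each library left out; leaving out both libraries numbered 1 was added later. Plots used Python 3.11.15 with matplotlib 3.10.9.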

Additional observations from a re-analysis of the deposited data

Results flagged for a closer look

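In 3 of the 73 members, ScOE 4 lay far below the other ScOE libraries by Dixon's criterion, which takes the gap to the nearest library over the whole range of the group. mRpL12 was at 35.8 FPKM in ScOE 4 and at 57.5, 55.0 and 56.1 in the others (gap over range 0.886). mRpL13 was at 55.5 FPKM against 75.9, 76.0 and 78.4 (0.89), and mRpL52 at 17.1 FPKM against 23.9, 23.8 and 25 (0.851). Chance alone marks about 1 in 20 groups of 4. The criterion was applied to the 4 ScOE libraries only, since a group of 3 is too small for it.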

How the results depend on the processing

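Scaling mattered most. With upper quartile scaling 12 mRpL and 7 mRpS genes were lower and 1 mRpL gene higher; with quantile scaling 13, 6 and 1. With equal FPKM totals 0 mRpL and 0 mRpS genes were lower, 9 and 7 were higher, and over all tested genes 280 were lower and 4454 higher. Under equal totals 61 of the 73 members changed sign and 8 stayed below 0. The list that follows is not complete, and other members named in the text also changed sign. Genes that turned above 0 included mRpL48 0.004, mRpS2 0.016, mRpL4 0.048, mRpS34 0.10, mRpL45 0.10, mRpL38 0.12, mRpL12 0.14, mRpS11 0.16, mRpL47 0.18, bonsai 0.18, mRpL34 0.21, mRpS22 0.28, mRpL53 0.29, mRpS18A 0.32, mRpL23 0.32, mRpL10 0.33, mRpS30 0.47, mRpL2 0.50, mRpS7 0.51, mRpL11 0.59, mRpL33 0.59 and mRpS18C 0.60. mRpL33 was also at 0.11 with quantile scaling. With 1 library left out, mRpL33 ranged from -0.43 (without Ctrl 1) to 0.018 (without Ctrl 3), and mRpS14 from -0.03 (without Ctrl 2) to 0.255 (without Ctrl 1). Library weights gave 29 mRpL and 15 mRpS genes lower, and 1 mRpL and 1 mRpS gene higher. In that fit 2686 of all tested genes were lower and 2154 higher. At an adjusted p under 0.01, 8 mRpL and 4 mRpS genes were lower, and 959 of all tested genes were lower and 929 higher. Leaving out 1 library gave 12 to 21 mRpL and 9 to 12 mRpS genes lower, 1317 to 1699 of all tested genes lower and 1185 to 1509 higher, and a large minus small median difference of -0.081 to 0.005. The lowest mRpL counts were 12 without ScOE 2, 15 without ScOE 3 and 16 without Ctrl 1. With the replicate number as a block, 19 mRpL and 8 mRpS genes were lower; same-numbered libraries correlated at 0.524, -0.0406 and 0.0816, so the numbers were not taken to pair them. Pseudocounts, filters, trimmed-mean scaling, no trend and robust moderation kept these counts within 1.5 times. Apart from the construction of each setting, the cause of these differences was not tested. FPKM keeps no depth, so counting error for low members is unknown.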
